A study of Mus musculus with 21 samples.

Results

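A set of 10 genes that p53 switches on was followed through sorted cells of the mouse small intestine: Cdkn1a, Btg2, Gadd45a, Plk2 and Ccng1, which slow or stop the cell cycle, Mdm2, Ppm1d and Zmat3, which feed back on the p53 pathway, and the sestrins Sesn1 and Sesn2. The genes were chosen by name as known targets of p53, and every probe set (a group of short probes for one transcript) that carried one of these names and no other was taken, 22 of 45101 on the array. Of the 18194 genes with such a probe set, 10 are therefore covered here, and 21 of the 22 probe sets passed the filter on low values. The exception was the Plk2 probe set 1443780_at, whose signal lay between 0.941 and 15.5 on the 20 sorted arrays. Where a gene had several probe sets, the one with the highest mean represents it, and the others are given where their direction or call differs.

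The labels describe TdTomato-positive cells, labelled Mist1+, that were parted by their surface level of CD24 into fractions called CD24lo and CD24hi. Mist1 is another name for Bhlha15, which secretory cells use as a transcription factor. Each fraction was collected in 5 conditions with 2 arrays each: untreated control, irradiated at 10 Gy, treated with doxorubicin, Lgr5-ablated (titled DT), and NICD-expressing. All sorted groups therefore carry the TdTomato label, and the untreated group is the only control. Doxorubicin is a topoisomerase poison that breaks DNA, DT usually stands for diphtheria toxin, and NICD is the usual short name of the active intracellular part of a Notch receptor. The labels used here give no time after treatment, no doxorubicin dose, no promoter or Cre line for the label or for NICD, and no group with DT alone, so effects of DT and of ablation cannot be told apart. They also do not say whether the 2 arrays of a group came from separate mice, so p-values measure the spread between these arrays, which may be technical. A single further array held whole intestine, labelled villi, and entered no test.

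p53 is a transcription factor that is kept scarce in unstressed cells, because Mdm2, the product of a gene that p53 itself induces, tags it for destruction. DNA damage activates the kinases Atm and Atr, which shield p53 from Mdm2, and p53 then raises genes that stop the cell cycle, repair DNA or start cell death. Several targets close the loop again: Mdm2 degrades p53, Ppm1d (Wip1) is a phosphatase that switches off the damage kinases, and Ccng1 (cyclin G1) recruits a phosphatase to Mdm2. In the crypts of the small intestine, p53 and Cdkn1a are well known for their response to radiation, which kills many dividing cells and holds others in arrest.

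p53 binds DNA as a tetramer at paired copies of a 10-letter half-site, parted by a spacer of up to 13 bases. RefSeq promoter windows (build GRCm38.p6, 250 bases before to 50 bases after a start of transcription) were matched for 9 of the 10 genes, in 11 windows, and searched for the p53 half-site, which reads alike on both strands, and for a pair of half-sites with at most 2 mismatches in all. An exact half-site was found in 6 of the 11 windows, against 8.36% of 32851 windows, and a pair in 4 of 11, against 4.09%. The 4 pairs lay in windows of Cdkn1a, Ccng1, Sesn1 and Gadd45a. Mdm2 and Ppm1d had a single half-site, and the windows of Plk2, Sesn2 and Btg2 had neither. Cdkn1a and Sesn1 had 2 windows each, for different starts. Their other windows, at chr17:29093519-29093818 and chr10:41810324-41810623, had neither as well. Such a match describes letters and not a site in use, and a window without one says nothing about p53 binding elsewhere in the gene. The upstream 250 bases are printed for 4 genes that differ in their response below, 5′ to 3′ on the gene's strand. Where a window had a pair, capitals mark only the pair with the fewest mismatches. The stretches are Cdkn1a at chr17:29090729-29090978 (plus strand), Ccng1 at chr11:40755287-40755536 (minus strand), Plk2 at chr13:110394794-110395043 (plus strand) and Gadd45a at chr6:67037408-67037657 (minus strand).
Cdkn1a: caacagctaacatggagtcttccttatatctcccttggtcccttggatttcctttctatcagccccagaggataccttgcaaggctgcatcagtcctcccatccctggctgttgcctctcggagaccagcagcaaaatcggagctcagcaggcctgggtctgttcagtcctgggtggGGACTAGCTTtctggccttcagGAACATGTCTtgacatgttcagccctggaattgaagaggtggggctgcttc
Ccng1: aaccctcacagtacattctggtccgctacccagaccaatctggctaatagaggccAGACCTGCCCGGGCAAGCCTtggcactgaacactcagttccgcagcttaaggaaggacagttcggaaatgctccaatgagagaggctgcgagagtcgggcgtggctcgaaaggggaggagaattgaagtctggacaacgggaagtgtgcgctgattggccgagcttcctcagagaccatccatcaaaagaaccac
Plk2: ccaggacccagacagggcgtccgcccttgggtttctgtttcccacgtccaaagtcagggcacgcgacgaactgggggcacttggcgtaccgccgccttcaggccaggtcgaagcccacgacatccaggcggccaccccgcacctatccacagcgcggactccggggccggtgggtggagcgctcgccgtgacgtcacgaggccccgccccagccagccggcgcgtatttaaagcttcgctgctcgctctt
Gadd45a: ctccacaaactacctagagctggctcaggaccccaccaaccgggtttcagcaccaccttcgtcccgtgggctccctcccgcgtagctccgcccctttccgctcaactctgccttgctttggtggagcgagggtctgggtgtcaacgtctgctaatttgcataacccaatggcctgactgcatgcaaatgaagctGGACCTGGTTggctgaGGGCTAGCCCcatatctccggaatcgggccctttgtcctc
With the first transcribed base after each printed stretch counted as 0, the Cdkn1a pair in capitals ran from -73 to -42. It had no mismatch and a spacer of 12 bases. Its second half-site, GAACATGTCT, also forms a pair with the letters tgacatgttc that follow it, with 1 mismatch and a spacer of 0. The Ccng1 pair ran from -195 to -176 with 1 mismatch and a spacer of 0, and the Gadd45a pair from -56 to -31 with 2 mismatches and a spacer of 6.

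The 20 sorted arrays had median signals from 101 to 158, and r between replicate arrays was 0.942 to 0.985 across genes. For arrays, their number limits the precision. The sort was visible in untreated cells: Bhlha15 read 559.9 and 563 in CD24lo and 2157 and 2792 in CD24hi arrays, and Cd24a read 8912 and 9229.8 against 18465 and 21547. Lgr5 was at 2841 and 1962 in untreated and at 1139.6 and 788 in Lgr5-ablated CD24hi arrays, a difference of -1.30 that did not pass (adjusted p = 0.455). The second CD24hi NICD array (replicate 2) differed from the rest in its control probes: actin gave a ratio of 1.03 between its 3′ and 5′ probes, where the other 19 sorted arrays gave 1.30 to 1.58, and the cre spike-in read 75343, where they gave 22819 to 48833. The NICD results rest on it and are given with and without it. It also enters the variance that all groups share, and where leaving it out changes a call elsewhere, the value is given.

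Irradiation raised 6 of the 10 genes in CD24lo cells and 5 in CD24hi cells, and doxorubicin raised 4 in each fraction. Plk2, Zmat3, Sesn2 and Ccng1 rose in all 4 comparisons, Cdkn1a rose after irradiation in both fractions, and Mdm2 rose after irradiation in CD24lo cells. No gene of the 10 fell. Beside these counts, 4.02% of all 11854 genes tested passed after irradiation in CD24lo cells (1.58% higher), 4.44% in CD24hi cells (1.11% higher), 14.7% after doxorubicin in CD24lo cells (5.47% higher) and 1.2% in CD24hi cells (0.801% higher). Differences are given as log2(signal + 16) ± SE with 2 arrays per group, which understates the folds of dim genes, and a call is an adjusted p under 0.05 from limma's moderated test over all genes. The median difference of the 10 genes was 1.34 after irradiation in CD24lo and 1.06 in CD24hi cells, and 0.68 and 0.91 after doxorubicin, while the median of all genes lay between -0.0583 and 0.0023. In bulk samples such as these, fewer cells of a type and less RNA per cell cannot be told apart. Both treatments were compared with the same untreated arrays, so their counts are not independent of each other. With 2 arrays per group, arrays often do not overlap. After irradiation both treated arrays lay above both untreated ones in 24.8% (CD24lo) and 23.2% (CD24hi) of all genes tested. After doxorubicin the shares were 26.2% and 25.4%, and 35.1% and 25.9% lay below. Of the 10 genes, 8 and 7 lay above after irradiation, and 7 and 7 after doxorubicin.

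**Figure D1:**
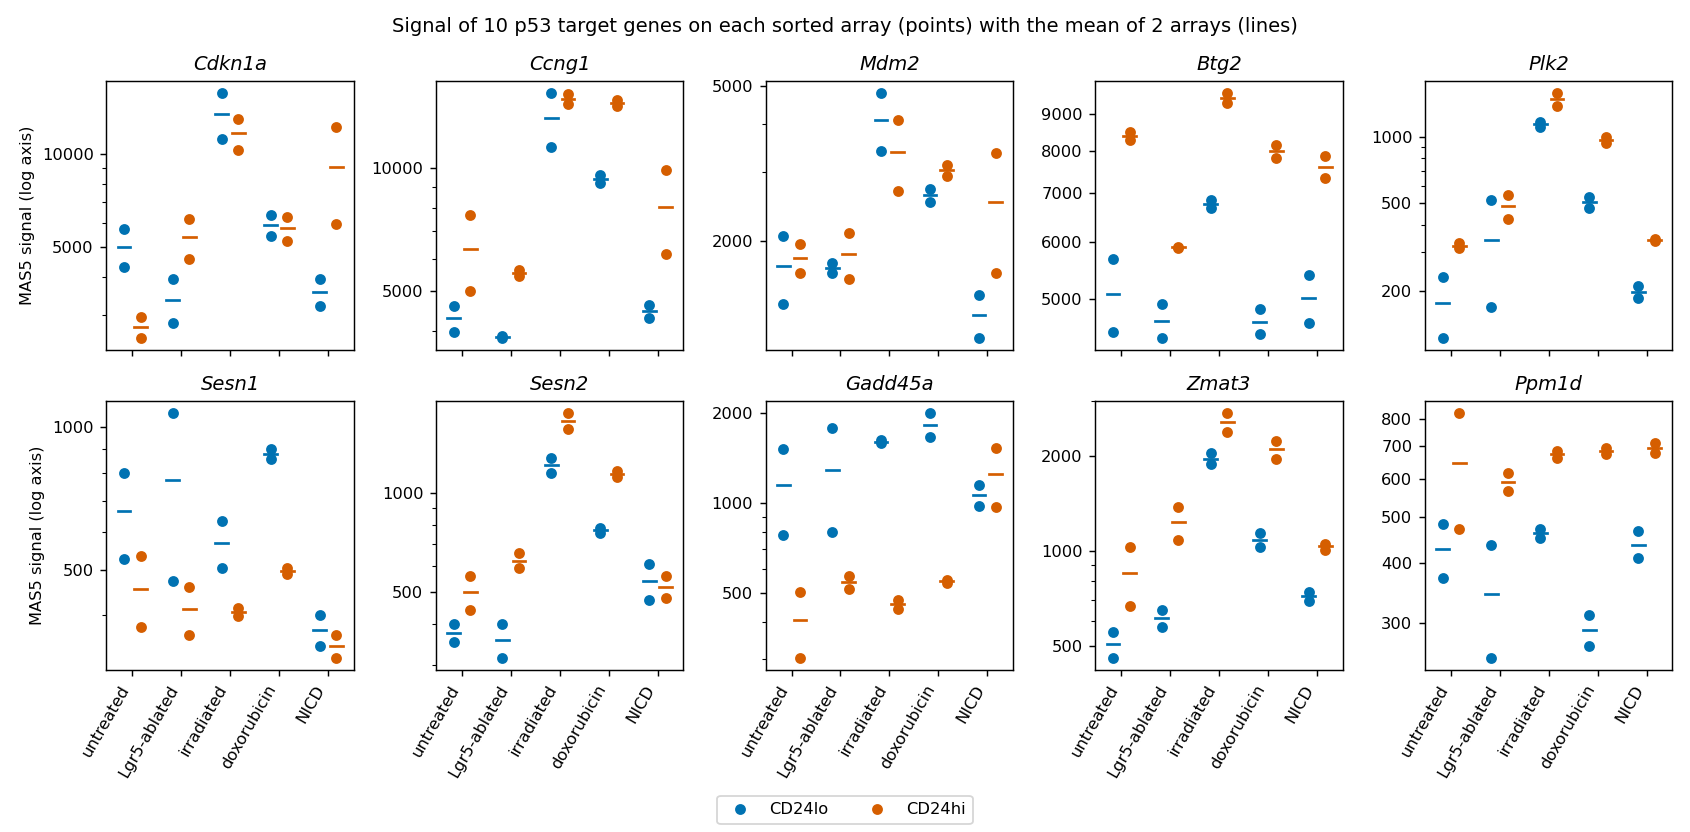
Signal of the 10 genes (log axis, arbitrary units of the deposited table) in each of the 20 sorted arrays, by condition, with CD24lo and CD24hi cells marked apart; points are single arrays and short lines are means of 2. Irradiated and doxorubicin arrays lie above the untreated arrays of their fraction for Plk2, Zmat3, Sesn2 and Ccng1, and Btg2 and Ppm1d lie higher in CD24hi than in CD24lo cells in most conditions.

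Markers of other cell types moved with some of these groups. After irradiation, the summed signal of 10 stem cell markers was 7925 to 9843 in CD24lo cells against 18753 to 21302 untreated, with 4 of 10 lower, and 21768 to 22490.4 against 44241 to 47385 in CD24hi cells, with 3 lower. The summed signal of 8 stroma and endothelium markers was 1428 to 2719.9 against 661 to 708 in CD24lo cells, with 0 of 2 tested past the threshold by limma and 1 at an unadjusted p under 0.05, and 1444 to 1766 against 489.6 to 759.5 in CD24hi cells, with the same counts. Only 1 of these 8 markers was above the array median on each of these arrays. After doxorubicin, 8 T cell markers summed to 3447 to 3582 in CD24lo cells against 342 to 1005 untreated, with 5 of 7 tested higher, and to 1788 to 2013 against 294 to 753 in CD24hi cells, where 0 of 7 passed by limma and 5 had an unadjusted p under 0.05. Enterocyte markers summed to 134804 to 154883 against 68862 to 80888 in CD24lo cells, with 4 of 11 higher, and stem cell markers to 6049 to 6604, with 6 of 10 lower. Paneth cell markers summed there to 41945 to 47288 against 64130 to 77612, with 3 of 6 tested lower, and myeloid markers to 2394 to 3619 against 6385 to 7576, with 2 of 5 tested lower and 1 higher. In CD24hi cells enterocyte markers summed to 56546 to 57138 against 23824 to 29301, with 3 of 11 higher, stem cell markers to 31218 to 31758 with 1 of 10 lower, and myeloid markers to 4649 to 5102 against 5987 to 7923, with 0 of 5 past the threshold by limma and 1 at an unadjusted p under 0.05. B and plasma cell markers (6 on the array) summed to 793 to 1579 after irradiation against 2696 to 4981 in CD24lo cells, and to 759 to 1074 against 3402 to 4199 in CD24hi cells, with 1 of 5 tested lower. On the arrays compared, only 1 to 3 of these 6 markers were above the array median. Of the 8 myeloid markers, only 2 or 3 were above it on the untreated and doxorubicin arrays. The part of these cell types in the differences below was not tested.

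Cdkn1a encodes p21, the inhibitor of cyclin-dependent kinases through which p53 holds cells in arrest. In CD24lo cells it read 4309.9 and 5699.8 untreated, 15824 and 11269.7 irradiated and 5417 and 6344 with doxorubicin. In CD24hi cells it read 2943 and 2522 untreated, 10323 and 13085 irradiated and 6277 and 5241 with doxorubicin. Irradiated arrays lay above all untreated arrays in both fractions, whereas the doxorubicin arrays overlapped the untreated ones in CD24lo cells. Irradiation raised Cdkn1a by 1.43 ± 0.29 (a fold of 2.69) in CD24lo cells, adjusted p = 0.00963, and by 2.09 ± 0.29 (a fold of 4.25) in CD24hi cells, adjusted p = 0.000373. The CD24lo call was lost without untreated CD24lo replicate 1 (adjusted p = 0.0679) and without irradiated CD24lo replicate 1 (adjusted p = 0.151). After doxorubicin the difference in CD24lo cells was 0.24 ± 0.29, adjusted p = 0.602, with a 95% interval of -0.37 to 0.85 that did not reach the size seen after irradiation. In CD24hi cells it was 1.07 ± 0.29, adjusted p = 0.0895, which became 0.0261 without CD24hi NICD replicate 2, and the other Cdkn1a probe set passed at 1.12 ± 0.25, adjusted p = 0.0380.

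Plk2 encodes a polo-like kinase that p53 induces and that takes part in checkpoints and centriole duplication. Its signal in CD24lo cells was 122 and 232 untreated, 1174 and 1106 after irradiation and 535 and 478 after doxorubicin. In CD24hi cells it was 329 and 314 untreated, 1381 and 1578 irradiated and 940.0 and 995 with doxorubicin. No treated array overlapped an untreated one of its fraction. By the probe set that represents each gene, Plk2 gave the largest difference of the 10 in all 4 comparisons: 2.64 ± 0.35 (adjusted p = 0.000540) and 2.14 ± 0.35 (adjusted p = 0.00154) after irradiation in CD24lo and CD24hi cells, and 1.49 ± 0.35 (adjusted p = 0.0116) and 1.54 ± 0.35 (adjusted p = 0.0407) after doxorubicin. These correspond to folds of 6.24, 4.42, 2.82 and 2.91. The doxorubicin call in CD24lo cells was lost without untreated CD24lo replicate 1 (adjusted p = 0.0916), and without doxorubicin CD24lo replicate 1 (0.0889) or 2 (0.0570). The CD24hi call was lost without any one of the 4 arrays compared.

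Ccng1 encodes cyclin G1, which brings protein phosphatase 2A to Mdm2 and so sits in both the arrest and the feedback branch. It read 4596 and 3982 in untreated, 15253 and 11269.8 in irradiated and 9206 and 9635 in doxorubicin-treated CD24lo cells. The CD24hi values were 7672 and 5012 untreated, 14346 and 15164 irradiated and 14666 and 14171 with doxorubicin. Every treated array was above every untreated array of its fraction, and the doxorubicin and irradiated arrays of CD24hi cells overlapped each other. Ccng1 rose by 1.61 ± 0.21 and 1.25 ± 0.21 after irradiation (CD24lo and CD24hi, adjusted p = 0.000540 and 0.00211) and by 1.14 ± 0.21 and 1.21 ± 0.21 after doxorubicin (adjusted p = 0.00366 and 0.00874). Its other 2 probe sets moved further, up to 2.79 ± 0.24 for 1450017_at after irradiation in CD24lo cells (adjusted p = 5.37e-06).

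Btg2, an antiproliferative gene that p53 can induce, was among the genes that did not pass. It read 5681 and 4505 untreated, 6849.8 and 6678 irradiated and 4476 and 4843 with doxorubicin in CD24lo cells, and 8501 and 8279.5 untreated, 9598 and 9294 irradiated and 8161 and 7832 with doxorubicin in CD24hi cells. Irradiated arrays were above the untreated ones in each fraction, by 0.42 ± 0.14 (adjusted p = 0.107) and 0.17 ± 0.14 (adjusted p = 0.626). After doxorubicin the differences were -0.12 ± 0.14 and -0.07 ± 0.14. The other Btg2 probe set, 1416250_at, gave 0.63 ± 0.19 (adjusted p = 0.0728) and 0.10 ± 0.19 after irradiation and 0.10 ± 0.19 and -0.20 ± 0.19 after doxorubicin, none past the threshold. Gadd45a, a stress gene whose protein inhibits Cdk1 and acts in repair, read 1525 and 779.9 untreated, 1624 and 1594 irradiated and 1661 and 2009 with doxorubicin in CD24lo cells. In CD24hi cells it read 505 and 303 untreated, 474 and 442 irradiated and 553 and 539 with doxorubicin. The 2 untreated CD24lo arrays of Gadd45a lay far apart, and its differences of 0.55 ± 0.35 and 0.22 ± 0.35 after irradiation and 0.73 ± 0.35 and 0.46 ± 0.35 after doxorubicin did not pass (adjusted p from 0.159 to 0.830).

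Mdm2, the ubiquitin ligase that returns p53 to its low level, read 1373 and 2059.6 in untreated, 4790.35 and 3403 in irradiated and 2509 and 2723 in doxorubicin-treated CD24lo cells. In CD24hi cells it read 1651 and 1963 untreated, 2692 and 4089.6 irradiated and 3134 and 2933 with doxorubicin. Treated arrays were above all untreated arrays of their fraction, yet only the irradiation difference in CD24lo cells passed, 1.26 ± 0.30, adjusted p = 0.0244. It was lost without untreated CD24lo replicate 1 (adjusted p = 0.141) and without irradiated CD24lo replicate 1 (adjusted p = 0.264). The other differences were 0.88 ± 0.30 after irradiation in CD24hi cells (adjusted p = 0.123, and 0.0443 without CD24hi NICD replicate 2), 0.63 ± 0.30 after doxorubicin in CD24lo cells (adjusted p = 0.155) and 0.75 ± 0.30 in CD24hi cells (adjusted p = 0.318). The probe sets of Mdm2 gave different answers here. In CD24hi cells after irradiation, 1423605_a_at rose by 1.38 ± 0.20 (adjusted p = 0.000599) and 1457929_at by 1.08 ± 0.24 (adjusted p = 0.0115). After doxorubicin in CD24lo cells, 1457929_at rose by 1.04 ± 0.24 (adjusted p = 0.00987), while in CD24hi cells no Mdm2 probe set passed, the differences of the other 2 being 0.53 ± 0.20 (adjusted p = 0.320) and 0.72 ± 0.24 (adjusted p = 0.215).

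Zmat3 (Wig1), an RNA-binding zinc finger protein that p53 induces and that acts on the messages of p53 and of its targets, rose in all 4 comparisons. It read 554 and 458 untreated, 1883 and 2045 irradiated and 1029 and 1139 with doxorubicin in CD24lo cells. The CD24hi arrays gave 1031 and 668 untreated, 2381 and 2743 irradiated and 2237 and 1962 with doxorubicin. No treated array overlapped the untreated ones of its fraction. The rises were 1.93 ± 0.20 and 1.60 ± 0.20 after irradiation (adjusted p = 6.17e-05 and 0.000170) and 1.08 ± 0.20 and 1.32 ± 0.20 after doxorubicin (adjusted p = 0.00364 and 0.00325).

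Ppm1d did not pass in any of these comparisons. Its signal in CD24lo cells was 373 and 483 untreated, 451 and 471 irradiated and 312 and 268 with doxorubicin, and in CD24hi cells 823 and 471 untreated, 684 and 664 irradiated and 676 and 694 with doxorubicin. Doxorubicin arrays of CD24lo cells lay below both untreated arrays, with a difference of -0.53 ± 0.26 (adjusted p = 0.179), and the irradiation differences were 0.12 ± 0.26 and 0.11 ± 0.26. The 95% intervals after irradiation were -0.43 to 0.67 and -0.44 to 0.66, so changes within them were not excluded. The other Ppm1d probe set, 1434142_at, went the opposite way after doxorubicin in CD24lo cells, with 362 and 321 above the 269 and 276 of the untreated arrays, a difference of 0.31 ± 0.19 (adjusted p = 0.298). Its other differences were 0.52 ± 0.19 (adjusted p = 0.133) and 0.14 ± 0.19 after irradiation and 0.56 ± 0.19 (adjusted p = 0.238) after doxorubicin in CD24hi cells, so the direction of Ppm1d after doxorubicin in CD24lo cells depended on the probe set.

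The sestrins restrain the growth kinase mTORC1 and protect cells from oxidants, and of the 2 measured here only Sesn2 passed. Sesn2 read 353 and 399.5 untreated, 1157 and 1287 irradiated and 759.8 and 785 with doxorubicin in CD24lo cells, and 562 and 440.2 untreated, 1763 and 1577 irradiated and 1125 and 1171 with doxorubicin in CD24hi cells. Treated and untreated arrays did not overlap in either fraction. Sesn2 rose by 1.66 ± 0.19 and 1.71 ± 0.19 after irradiation (adjusted p = 0.000205 and 6.18e-05) and by 1.01 ± 0.19 and 1.18 ± 0.19 after doxorubicin (adjusted p = 0.00415 and 0.00530). Its other probe set, 1425139_at, passed at 1.73 ± 0.31 and 2.00 ± 0.31 after irradiation and at 1.72 ± 0.31 after doxorubicin in CD24hi cells, but not after doxorubicin in CD24lo cells, at 0.60 ± 0.31 (adjusted p = 0.206). Sesn1 read 802 and 526 untreated, 505 and 634 irradiated and 898 and 859 with doxorubicin in CD24lo cells, and 534 and 378 untreated, 414 and 399 irradiated and 504 and 489.8 with doxorubicin in CD24hi cells. Irradiated arrays of Sesn1 overlapped the untreated ones in both fractions, with differences of -0.20 ± 0.30 and -0.14 ± 0.30. Doxorubicin gave 0.43 ± 0.30 and 0.14 ± 0.30, short of the threshold, as did the other 3 Sesn1 probe sets in all 4 comparisons. The Sesn1 probe set with the highest mean, 1433711_s_at, carries the _s suffix, so its probes may read more than 1 transcript or gene.

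Sesn2 is also a target of the integrated stress response, which cells use when amino acids or folding capacity run short. Of the 12 genes listed for that response, Sesn2 was the only one past the threshold after irradiation in either fraction and after doxorubicin in CD24hi cells. After doxorubicin in CD24lo cells, Ddit3 (CHOP) rose by 0.80 ± 0.24 beside Sesn2, while Chac1 fell, at -1.26 ± 0.40, and Asns fell, at -1.14 ± 0.18. The median over the 12 genes, Sesn2 included, was 0.19 and -0.11 after irradiation (CD24lo and CD24hi) and -0.30 and -0.26 after doxorubicin. The part of this response in the rise of Sesn2 was not tested.

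The calls differed in how far they depended on single arrays. With each array of a comparison left out in turn, and without CD24hi NICD replicate 2, Plk2, Zmat3, Sesn2 and Ccng1 passed in every fit after irradiation in both fractions, as did Cdkn1a in CD24hi cells. The same held for Ccng1, Sesn2 and Zmat3 after doxorubicin in CD24lo cells. After doxorubicin in CD24hi cells, where limma called 142 genes in all, the count of 4 fell to 0 without untreated CD24hi replicate 2 (6 of the 10 genes then had an unadjusted p under 0.05), to 0 without doxorubicin CD24hi replicate 1 (5 unadjusted) and to 1 without doxorubicin CD24hi replicate 2 (5 unadjusted). Over the fits with each of the 4 arrays left out, the difference ran from 1.01 to 1.63 for Zmat3, from 1.01 to 1.35 for Sesn2 and from 0.91 to 1.52 for Ccng1.

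Set directly against irradiation, doxorubicin gave lower levels of 3 of the 10 genes in CD24lo cells, where 3.27% of all genes passed and 1.95% were lower, and of 0 in CD24hi cells, where 4.56% of all genes passed. In CD24lo cells, doxorubicin minus irradiation was -1.19 ± 0.29 for Cdkn1a (adjusted p = 0.0331), -0.85 ± 0.20 for Zmat3 (adjusted p = 0.0320) and -0.54 ± 0.14 for Btg2 (adjusted p = 0.0489). Plk2 at -1.15 ± 0.35 (adjusted p = 0.0796) and Sesn2 at -0.65 ± 0.19 (0.0750) were short of the threshold, and the median of the 10 genes was -0.63 against -0.05 for all genes. Each of the 3 calls was lost without any one of the 4 arrays compared, which left 0 of the 10 genes called by limma and 5 to 7 at an unadjusted p under 0.05. The other Btg2 probe set was at -0.53 ± 0.19 (adjusted p = 0.137). Single probe sets of Ccng1 and Mdm2 were also lower, with 1450017_at of Ccng1 at -1.25 ± 0.24 (adjusted p = 0.0116) and 1457929_at of Mdm2 at -1.02 ± 0.24 (adjusted p = 0.0289). In CD24hi cells the largest difference was that of Cdkn1a, -1.02 ± 0.29, adjusted p = 0.0544, and 0.0136 without CD24hi NICD replicate 2, while 2 of the 10 genes had an unadjusted p under 0.05. For Ccng1 the difference in CD24hi cells was -0.03 ± 0.21, with a 95% interval of -0.49 to 0.42, and for Mdm2 -0.13 ± 0.30, with -0.75 to 0.49. These intervals hold only for the probe sets of highest mean, and the other probe sets of both genes had lower means with doxorubicin. For 1450017_at of Ccng1 the mean log2 levels were 12.37 with doxorubicin and 13.04 with irradiation. For 1423605_a_at of Mdm2 they were 9.89 and 10.74. The treatments differ in agent, and their doses and times are not matched in the labels.

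**Figure D2:**
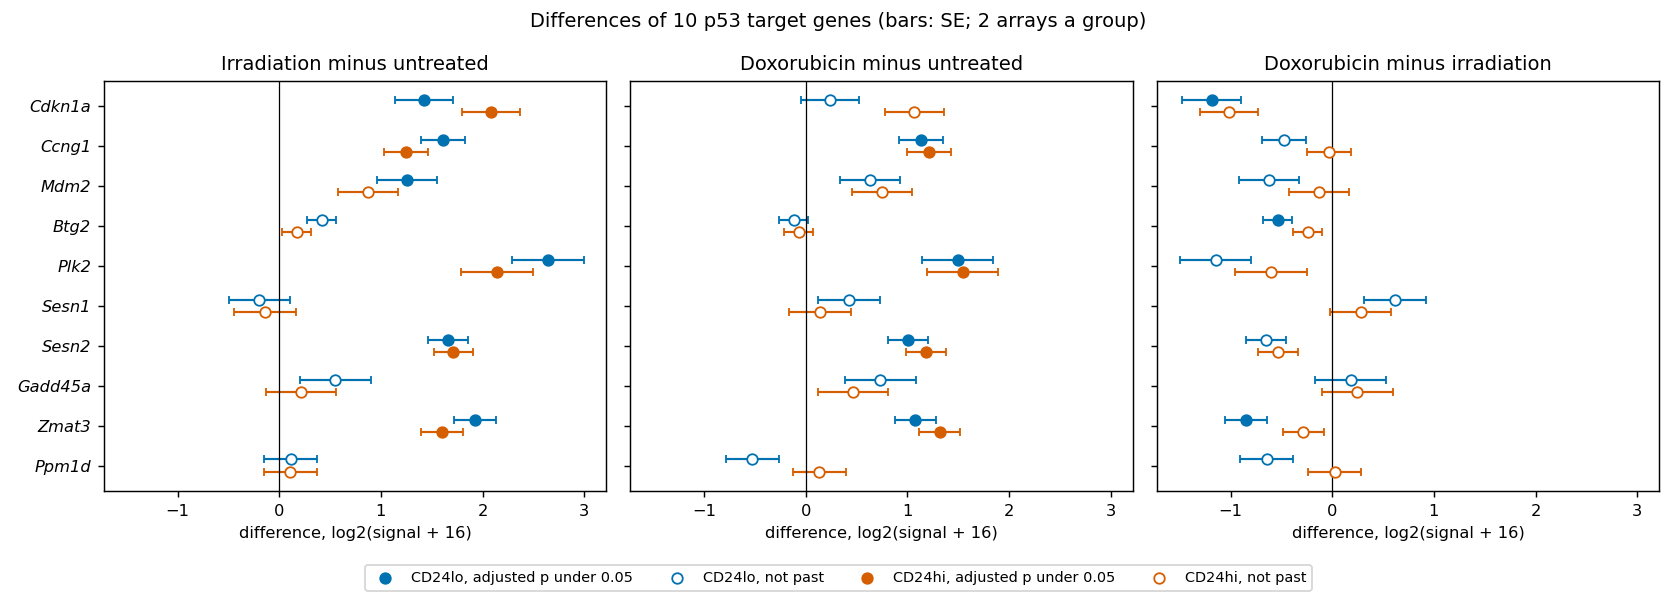
Differences from untreated cells in log2(signal + 16) for the 10 genes after irradiation and after doxorubicin, in CD24lo and CD24hi cells; another panel sets doxorubicin against irradiation. Points are differences of 2-array means, bars are 1 SE and filled points passed the threshold; Plk2, Zmat3, Sesn2 and Ccng1 are past it in all 4 comparisons with untreated cells, and Cdkn1a after irradiation lies at 1.43 and 2.09 against 0.24 and 1.07 after doxorubicin.

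Whether the 2 fractions responded differently was tested with an interaction term. For irradiation and for doxorubicin, limma called 0 of the 10 genes and none had an unadjusted p under 0.05, and of all genes 0.00844% and 0.0337% passed. The largest of these terms was that of Cdkn1a, whose difference from untreated cells was higher in CD24hi than in CD24lo cells by 0.66 ± 0.41 after irradiation (95% interval -0.20 to 1.52) and by 0.83 ± 0.41 after doxorubicin (95% interval -0.03 to 1.69). Sesn2 gave 0.06 ± 0.28 and 0.17 ± 0.28, so that intervals of -0.53 to 0.64 and -0.41 to 0.75 bound how far its responses could differ.

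Over single probe sets, 12 of the 21 kept were higher after irradiation in CD24lo cells and 11 in CD24hi cells, and 7 and 8 after doxorubicin. In CD24lo cells 6 were lower with doxorubicin than with irradiation (of all 22531 probe sets kept, 2.86% passed there). In CD24hi cells 1 was lower in that comparison, where 3.77% of all kept passed. Every kept probe set of Cdkn1a, Ccng1, Mdm2, Plk2, Sesn2 and Zmat3 passed after irradiation in CD24lo cells, and no kept probe set of Btg2, Sesn1, Gadd45a or Ppm1d did. Of all kept, 3.91% passed in CD24lo cells after irradiation and 3.74% in CD24hi cells, and 12.4% and 0.888% after doxorubicin.

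Other parts of the p53 pathway were read from lists drawn up for this tissue and treatment, as counts beside the medians. Of 16 tested targets of p53 in cell death and survival, 5 rose after irradiation in CD24lo cells (median 0.74) and 4 in CD24hi cells (median 0.81). After doxorubicin 4 rose and 1 fell in CD24lo cells (median 0.35) and 5 rose in CD24hi cells (median 0.78). Phlda3, which blocks the survival kinase Akt, rose by 4.75 ± 0.44 and 4.10 ± 0.44 after irradiation and by 2.90 ± 0.44 and 3.37 ± 0.44 after doxorubicin (CD24lo and CD24hi). Eda2r, a receptor of the tumour necrosis factor family, rose by 4.59, 3.91, 3.16 and 3.09 in the same order. Dcxr, a reductase of sugar metabolism, rose in all 4 comparisons, by 1.86 and 2.08 after irradiation and by 1.21 after doxorubicin in CD24hi cells. Trp53inp1, a nuclear partner of p53, rose after irradiation in CD24lo cells (2.15 ± 0.33), Pmaip1 (Noxa) after doxorubicin in CD24lo cells (1.38 ± 0.42), and Bid fell there (-0.80 ± 0.23). In CD24lo cells Phlda3, Trp53inp1 and Aen were lower with doxorubicin than with irradiation, at -1.85, -1.45 and -1.01, and this count of 3 became 0 without any one of the 4 arrays, with 4 or 5 at an unadjusted p under 0.05. The doxorubicin counts also rested on single arrays. In CD24hi cells the count was 3 without untreated replicate 1, and 1 without untreated replicate 2 or either doxorubicin array. In CD24lo cells 1 passed without untreated CD24lo replicate 2 and 2 without either doxorubicin array.

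Among 18 tested further targets of p53, Ephx1, a detoxifying epoxide hydrolase, rose by 4.27 ± 0.35 and 3.18 ± 0.35 after irradiation and by 3.26 ± 0.35 and 2.79 ± 0.35 after doxorubicin. Psrc1, a spindle protein, rose by 2.48, 1.92, 1.67 and 2.56 in the same order. Ptp4a3, a phosphatase, rose by 1.67 and 1.34 after irradiation, and doxorubicin minus irradiation was -1.75 ± 0.31 in CD24lo cells. Medians over that list were 0.60, 0.33, -0.09 and 0.35, with 4 higher, 5 higher and 1 lower, 3 higher and 2 lower, and 3 higher. Of 12 tested targets in repair and metabolism, Polk, a translesion polymerase, rose after irradiation by 1.40 ± 0.20 and 1.31 ± 0.20, Ercc5, an excision repair nuclease, by 1.30 ± 0.32 in CD24lo cells, and Aldh4a1 after doxorubicin in CD24lo cells by 1.42 ± 0.41. After doxorubicin in CD24hi cells limma called 0 of the 12, with 3 at an unadjusted p under 0.05. Their medians were 0.23, 0.15, 0.32 and 0.22.

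Regulators that act on p53 had medians over 13 tested genes of -0.02, -0.06, 0.04 and 0.09 in that order. Trp53 itself has no probe set with a single symbol here and was not analysed. Mdm4, the paralog of Mdm2 that masks the activating part of p53, rose by 1.18 ± 0.19 and 1.15 ± 0.19 after irradiation and by 0.89 ± 0.19 after doxorubicin in CD24hi cells. Doxorubicin minus irradiation was -0.89 ± 0.19 for Mdm4 in CD24lo cells (adjusted p = 0.0197). Atr, a damage kinase, fell after irradiation in CD24hi cells, at -1.02 ± 0.19, and the acetyltransferase Kat5 fell in CD24lo cells, at -0.82 ± 0.20. After doxorubicin in CD24lo cells 2 regulators rose, the kinase Hipk2 by 1.11 ± 0.25 and the deubiquitinase Usp7 by 0.79 ± 0.25, and 5 fell, among them the checkpoint kinase Chek1 at -1.12 ± 0.24 and Atm at -0.79 ± 0.23.

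Close relatives of the 10 genes were read beside them, 14 tested. Apart from Mdm4, irradiation changed only Plk4, the kinase of centriole duplication, which fell in CD24hi cells at -1.38 ± 0.33. After doxorubicin in CD24lo cells Ccng2 (cyclin G2) rose by 1.21 ± 0.37 and Gadd45b by 1.08 ± 0.27 while Plk4 fell, at -1.24 ± 0.33, and in CD24hi cells Gadd45g fell, at -1.61 ± 0.34. Sesn3 was lower with doxorubicin than with irradiation in CD24lo cells, at -1.14 ± 0.25. Of the other inhibitors of cyclin-dependent kinases, 5 were tested, and in the comparisons of irradiation and doxorubicin Cdkn2c (p18) alone passed, at -1.39 ± 0.33 after irradiation in CD24hi cells and at 2.03 ± 0.33 for doxorubicin minus irradiation there. Immediate early genes, induced quickly by many stimuli and by tissue dissociation, passed in 1 of 14 tested after irradiation in CD24lo cells (Egr3, 1.94 ± 0.52) and 1 after doxorubicin there (Ier2, -0.99 ± 0.21), and in 0 in CD24hi cells by limma, with 0 (irradiation) and 2 (doxorubicin) at an unadjusted p under 0.05.

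Genes of mitosis, which dividing cells express, fell after irradiation in both fractions and after doxorubicin in CD24lo cells. Of 16 tested, 14 were lower after irradiation in CD24lo cells (median -1.38) and 14 in CD24hi cells (median -1.68), and 12 after doxorubicin in CD24lo cells (median -1.06). After doxorubicin in CD24hi cells limma called 0 of 16, with a median of 0.26, 14 of 16 positive and 3 at an unadjusted p under 0.05. Mki67, a marker of dividing cells, differed by -1.68 ± 0.31 and -2.06 ± 0.31 after irradiation, and the survivin gene Birc5, a part of the chromosomal passenger complex, by -1.93 ± 0.32 and -1.81 ± 0.32. Set directly against irradiation in CD24hi cells, doxorubicin left 14 of the 16 higher (median 1.92), with Mki67 at 2.36 ± 0.31, adjusted p = 0.000264, and the kinase gene Aurkb at 2.18 ± 0.21. In CD24lo cells the same comparison gave 0 of 16 by limma, with 1 at an unadjusted p under 0.05 (median 0.10). As an interaction, the doxorubicin effect in CD24hi minus CD24lo cells had a median of 1.42 over the list, with 0 of 16 past the threshold by limma and 15 at an unadjusted p under 0.05.

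The mitosis counts leaned on single arrays. After irradiation in CD24lo cells 6 passed without untreated CD24lo replicate 2, and 9 and 5 without irradiated CD24lo replicate 1 and 2. After doxorubicin in CD24lo cells 5 passed without untreated CD24lo replicate 2, and 6 and 4 without doxorubicin CD24lo replicate 1 and 2. In CD24hi cells 8 passed after irradiation, and 9 for doxorubicin against irradiation, without irradiated CD24hi replicate 1. Cyclins and kinases of G1 and S went partly the same way: Ccna2 (cyclin A2) differed by -1.37 ± 0.27 and -1.66 ± 0.27 after irradiation and by -1.07 ± 0.27 after doxorubicin in CD24lo cells, and Cdk1 by -1.23, -1.37 and -1.38. Ccnd2 (cyclin D2) rose after irradiation, by 0.79 and 0.84, and Cdk4 fell after doxorubicin in CD24lo cells, at -1.45 ± 0.24. After doxorubicin in CD24hi cells limma called 0 of these 16 genes, with 2 at an unadjusted p under 0.05. Side by side, Cdkn1a was 2.09 ± 0.29 above untreated cells after irradiation in CD24hi cells, with the mitosis median at -1.68, and 1.07 ± 0.29 after doxorubicin, with that median at 0.26. In CD24lo cells after doxorubicin Cdkn1a differed by 0.24 ± 0.29 and the mitosis median was -1.06.

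**Figure D3:**
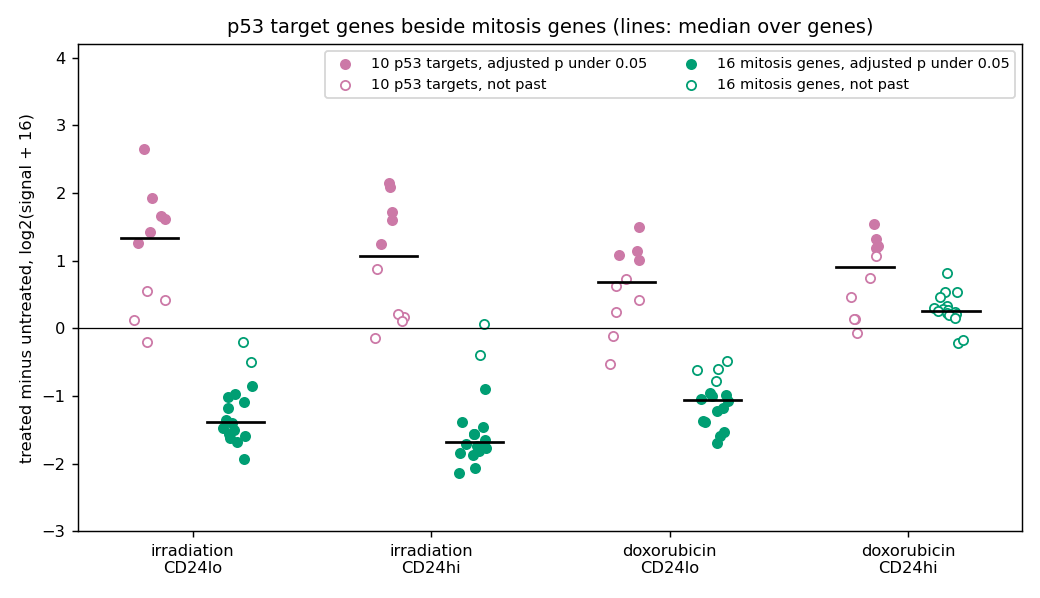
Differences from untreated cells in log2(signal + 16), with medians as lines, for the 10 p53 targets and for 16 mitosis genes in irradiated and doxorubicin-treated CD24lo and CD24hi cells, with each gene as a point, filled where it passed the threshold. The p53 target medians are above 0 in all 4 comparisons, and the mitosis median is -1.38, -1.68 and -1.06 in the first 3 comparisons and 0.26 after doxorubicin in CD24hi cells.

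In untreated cells the 2 fractions already differed in 3 of the 10 genes, where 14.4% of all genes passed. Btg2 was higher in CD24hi cells by 0.73 ± 0.14 (adjusted p = 0.00247) and Zmat3 by 0.70 ± 0.20 (adjusted p = 0.0279), while Gadd45a was lower, at -1.44 ± 0.35 (adjusted p = 0.00942). The arrays of the 2 fractions did not overlap for these genes. Of all genes tested, 29.4% had both CD24hi arrays above both CD24lo arrays and 24.5% had them below. Btg2 kept its call without any one array and without CD24hi NICD replicate 2. Zmat3 lost it without untreated CD24lo replicate 1 (adjusted p = 0.0531) or 2 (0.166), and when CD24hi replicate 1 of the untreated arrays was left out (0.335), and Gadd45a lost it without untreated CD24lo replicate 1 (0.146) or CD24hi replicate 2 (0.125). Cdkn1a was at -0.86 ± 0.29 (adjusted p = 0.0552, and 0.0154 without CD24hi NICD replicate 2), lower in CD24hi cells on all arrays. The count of 3 became 1 without untreated CD24lo replicate 1. Over single probe sets, 5 of the 21 kept were higher in CD24hi cells and 1 was lower, where 12.4% of all probe sets passed. Ccng1 was higher in CD24hi cells by 0.53 without a call (limma, adjusted p = 0.113). With the mean of its probe sets it was at 0.75 and passed (limma, adjusted p = 0.0214). Stem cell markers were higher in CD24hi cells in 10 of 10 and enterocyte markers lower in 10 of 11, and their part in these differences was not tested.

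After Lgr5 ablation none of the 10 genes passed by limma in either fraction, where 0.236% (CD24lo) and 0.852% (CD24hi) of all genes did, and 1 and 3 of the 10 had an unadjusted p under 0.05. Cdkn1a read 6184 and 4557 in ablated against 2943 and 2522 in untreated CD24hi cells, a difference of 0.96 ± 0.29 (adjusted p = 0.177), and 2815 and 3921 against 4309.9 and 5699.8 in CD24lo cells, a difference of -0.57 ± 0.29 (adjusted p = 0.686). The arrays did not overlap in either fraction and lay in opposite directions. Of all genes tested, 18.2% lay above in CD24hi cells without overlap and 19.3% lay below in CD24lo cells. The interaction of 1.53 ± 0.41 had an unadjusted p of 0.00156 and an adjusted p = 0.636 by limma, where 0.0169% of all genes passed. Btg2 in CD24hi cells was at -0.51 ± 0.14 (adjusted p = 0.131) and Zmat3 at 0.55 ± 0.20 (adjusted p = 0.329). Plk2 in CD24lo cells read 515 and 169 against 122 and 232, a difference of 0.76 ± 0.35 (adjusted p = 0.664). Without Lgr5-ablated CD24lo replicate 2 it was 1.52 ± 0.29 and passed (adjusted p = 0.0483). Of the other p53 targets, Phlda3 rose in CD24hi cells by 1.99 ± 0.44 (adjusted p = 0.0396), a call lost without untreated CD24hi replicate 2 or either ablated CD24hi array, and with a pseudocount of 1, quantile normalization, no filter, no variance trend or the groups compared alone. Marker levels differed between the 2 ablated CD24hi arrays: in replicate 1 enteroendocrine markers summed to 40610 against 10884 to 11841 untreated, B and plasma cell markers to 16338 against 3402 to 4199 and stroma and endothelium markers to 2699 against 489.6 to 759.5, while replicate 2 gave 11908, 3222 and 869. Of the 8 stroma and endothelium markers, 2 were above the array median in replicate 1 and 1 in replicate 2. Of the 6 B and plasma cell markers on the array, 4 and 2 were above it in that order. Stem cell markers summed to 26451 to 28982 in the ablated against 44241 to 47385 in the untreated CD24hi arrays, and 0 of 10 passed by limma, with 4 at an unadjusted p under 0.05. Leaving out replicate 1 left 0 of the 10 p53 targets past the threshold by limma, with 2 at an unadjusted p under 0.05, and the part of these cells in the values was not tested.

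NICD raised Cdkn1a and Gadd45a in CD24hi cells, 2 of the 10 genes where 6.56% of all genes passed and 4.7% were higher, and none in CD24lo cells, where 14.4% of all genes passed and 3 of the 10 had an unadjusted p under 0.05. Cdkn1a read 5938 and 12270.2 in NICD against 2943 and 2522 in untreated CD24hi cells, and 3928 and 3206 against 4309.9 and 5699.8 in CD24lo cells. The NICD arrays were above the untreated ones in CD24hi and below them in CD24lo cells, as were those of 25.6% and 29.6% of all genes tested. The differences were 1.64 ± 0.29 (adjusted p = 0.00239) and -0.48 ± 0.29 (adjusted p = 0.252), and their interaction, 2.12 ± 0.41, passed with adjusted p = 0.0298, where 2.65% of all genes did. The value of 12270.2 came from the CD24hi NICD array whose control probes stood apart. Without it Cdkn1a differed by 1.12 in CD24hi cells (adjusted p = 0.0516) and the interaction was 1.60 (adjusted p = 0.150), so that neither call remained. The interaction call was also lost without untreated CD24lo replicate 2 (0.0836), untreated CD24hi replicate 1 (0.0633) or 2 (0.0685), or CD24lo NICD replicate 2 (0.179).

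Gadd45a read 1532 and 973 in NICD against 505 and 303 in untreated CD24hi cells without overlap, a rise of 1.60 ± 0.35 (adjusted p = 0.0107), which was lost without untreated CD24hi replicate 2 (adjusted p = 0.137) and kept without CD24hi NICD replicate 2. Mdm2 on the array that stood apart was 3366 against 1649 on its replicate, while the Mdm2 probe set 1457929_at read 236 and 375 in that order, so the 2 probe sets went opposite ways. With that array alone, without CD24hi NICD replicate 1, Mdm2 and Ccng1 passed too (adjusted p = 0.0436 and 0.0440), and the count was 4, while the interaction then passed for 2 genes, Cdkn1a and Mdm2. In CD24lo cells the Ppm1d probe set 1434142_at was higher with NICD, at 0.88 ± 0.19 (adjusted p = 0.0130), and the one with the higher mean gave no call (0.04 ± 0.26). Among relatives of the 10 genes, Cdkn1c (p57), a Cip/Kip inhibitor like p21, rose in CD24hi cells by 2.67 ± 0.53. Tuft cell markers summed to 10798 to 12489 in NICD against 1265 to 1888 in untreated CD24hi cells with 6 of 6 tested higher, and enteroendocrine markers to 56995 to 93373 against 10884 to 11841 with 8 of 8 higher. In CD24lo cells T cell markers summed to 4494 to 5816 against 342 to 1005, with 3 of 7 tested higher, enteroendocrine markers to 23465 to 23629.5 against 9142 to 12872, with 2 of 8 higher, and enterocyte markers to 39876 to 42826 against 68862 to 80888, with 5 of 11 lower. B and plasma cell markers summed to 7599 to 9272 against 2696 to 4981 in CD24lo cells (0 of 5 past the threshold by limma, 0 at an unadjusted p under 0.05) and to 12042 to 12967 against 3402 to 4199 in CD24hi cells (2 of 5 higher). Stroma and endothelium markers summed to 1804 to 1894 against 661 to 708 in CD24lo cells (0 of 2 by limma, 2 at an unadjusted p under 0.05) and to 4068 to 5052 against 489.6 to 759.5 in CD24hi cells (1 of 2 higher). Only 1 or 2 of these 8 markers were above the array median on the NICD arrays. The part of these cells in the NICD values was not tested.

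**Figure D4:**
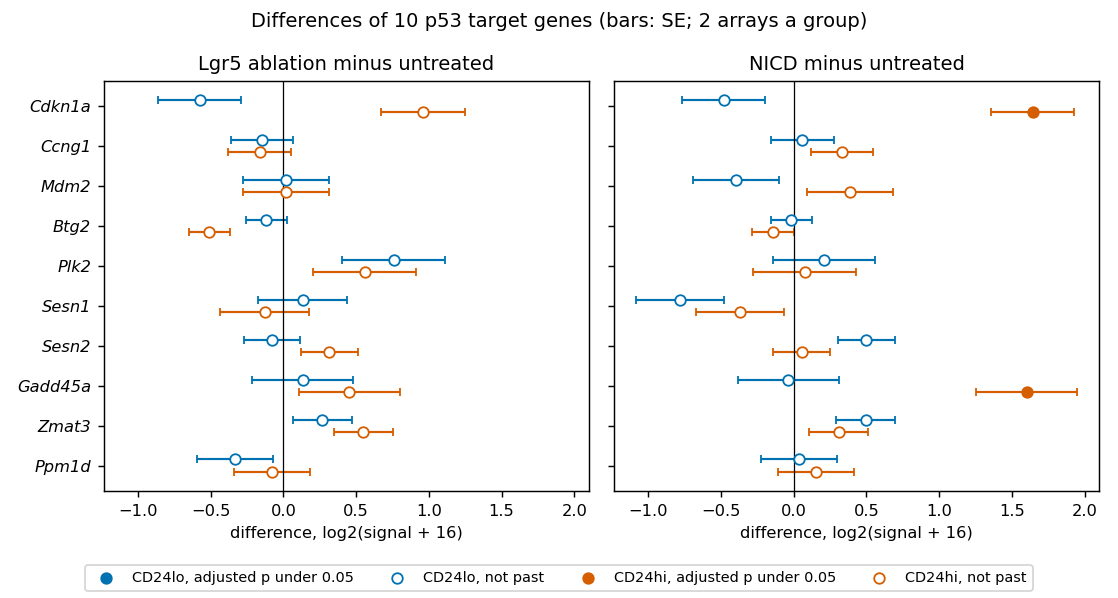
Differences in log2(signal + 16) of the 10 genes after Lgr5 ablation and with NICD, against untreated cells, in each fraction; points are differences of 2-array means, bars are 1 SE and filled points passed the threshold. The only filled points are Cdkn1a (1.64) and Gadd45a (1.60) with NICD in CD24hi cells.

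Ordered by mean log2 level over the 10 groups (± SD, 2 arrays), Cdkn1a was highest in irradiated CD24lo cells (13.71 ± 0.35), followed by irradiated CD24hi (13.51 ± 0.24), CD24hi NICD (13.06 ± 0.74), doxorubicin CD24lo (12.52 ± 0.16) and CD24hi (12.49 ± 0.18), Lgr5-ablated CD24hi (12.38 ± 0.31), untreated CD24lo (12.28 ± 0.28), CD24lo NICD (11.80 ± 0.21), Lgr5-ablated CD24lo (11.71 ± 0.34) and untreated CD24hi (11.42 ± 0.16). Of the 9 pairs of neighbours in that order, only untreated CD24lo and CD24lo NICD did not overlap. Plk2 had 5 of 9 neighbour pairs apart, as did Btg2, and ran from 10.54 ± 0.13 in irradiated CD24hi to 7.53 ± 0.60 in untreated CD24lo cells. How often neighbour pairs are apart over all genes was not counted. Zmat3 ran from 11.33 ± 0.14 to 9.02 ± 0.19 and Sesn2 from 10.72 ± 0.11 in irradiated CD24hi to 8.54 ± 0.23 in Lgr5-ablated CD24lo cells, each with 4 of 9 pairs apart. Ccng1 was highest in irradiated CD24hi (13.85 ± 0.06) and doxorubicin CD24hi cells (13.82 ± 0.04), which overlapped, and had 3 of 9 pairs apart. Mdm2 was highest in irradiated CD24lo cells (11.98 ± 0.35) and lowest in CD24lo NICD cells (10.33 ± 0.26), with 1 of 9 pairs apart. By the probe set of highest mean, the 5 CD24hi groups of Ppm1d all had higher means than the 5 CD24lo groups, from 9.48 ± 0.05 down to 8.25 ± 0.15. The other Ppm1d probe set, 1434142_at, did not keep this order. There CD24lo NICD cells (9.05 ± 0.19) lay above untreated (8.75 ± 0.07), NICD (8.83 ± 0.12) and irradiated CD24hi cells (8.89 ± 0.12). Sesn1 was highest in doxorubicin CD24lo cells (9.80 ± 0.05) and lowest in CD24hi NICD cells (8.49 ± 0.11), and like Ppm1d had 1 of 9 pairs apart. Btg2 was highest in irradiated CD24hi (13.21 ± 0.03) and lowest in doxorubicin CD24lo cells (12.19 ± 0.08). Gadd45a ran from 10.85 ± 0.19 in doxorubicin CD24lo to 8.67 ± 0.50 in untreated CD24hi cells, with 4 of 9 pairs apart.

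Over the 10 group means likeness between genes was measured by Pearson's r, as a description over groups with shared depth and cells and with no test. Zmat3 correlated with Plk2 at 0.969 and with Sesn2 at 0.963, Plk2 with Sesn2 at 0.942 and Ccng1 with Mdm2 at 0.930. Btg2 and Ppm1d correlated at 0.881, while Sesn1 and Ppm1d stood at -0.818. Of all genes tested, those most like Ccng1 were Ephx1 (0.972), Zfp809 (0.955), Cd80 (0.948), Dcxr (0.938) and Phlda3 (0.937). Those most like Mdm2 were Dcxr (0.974), Ctsd (0.958), Crip2 (0.947), Creb3l2 (0.932) and Ccng1 itself, and those most like Cdkn1a were Cox8c (0.947), Lmna (0.938), Fbxw9 (0.902), Dynll1 (0.897) and 5530601H04Rik (0.865).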

How the data were processed

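For 21 arrays the authors deposited 1 intensity per probe set. MAS5 is the tool that the submitters' processing notes name, without a version. Intensities are linear, and on every array the mean over all probe sets without the lowest and highest 2 percent was 500, the scaling MAS5 applies. RNA (0.8 ng) was amplified with the GeneChip Pico kit, per the labels' protocols. No detection calls were used. Probe sets with 1 gene symbol (34958; 932 had several and 9211 none) were kept when above the array median on at least 2 of 20 sorted arrays (22531), and the one of highest mean stood for each of 11854 genes. Log2(signal + 16) was fitted with limma 3.58.1 in R 4.3.3: 10 group means, 10 residual degrees of freedom, trended eBayes, two-sided, Benjamini-Hochberg at 0.05 over all genes. A second fit covered all kept probe sets. The script was tested on simulated data. Alternatives were pseudocounts of 1 and 64, quantile normalization, 75th percentile centring, filters, probe set rules, no variance trend, a replicate block, groups compared alone and single arrays left out. All 10 genes are named in the comparisons of irradiation and doxorubicin with untreated cells, while in the other comparisons genes were named by their result. From each other list, up to 4 genes past the threshold with the largest change in a comparison are named. For likeness, the 5 genes with the highest r were named for Cdkn1a, Mdm2 and Ccng1. The genes, lists and tests were chosen with earlier results of these data known. Gene positions and promoters are RefSeq's, GRCm38.p6; the values table used here has no coordinates.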

Additional observations from a re-analysis of the deposited data

Results flagged for a closer look

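The effect of NICD on Cdkn1a differed between the fractions by 2.12 on the log2 scale (limma, adjusted p = 0.0298), with the 2 CD24hi NICD arrays above and the 2 CD24lo NICD arrays below the untreated arrays of their fraction. Without CD24hi NICD replicate 2 it was 1.60, adjusted p = 0.150.

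Whole intestine, a single array outside every comparison, lay above all 4 untreated sorted arrays for 4 of the 10 genes: Cdkn1a at 10098 against 2522 to 5699.8, Mdm2 at 4363 against 1373 to 2059.6, Sesn1 at 2185 against 378 to 802 and Gadd45a at 1924 against 303 to 1525. It lay below all 4 for 3 of the 10: Btg2 at 1119 against 4505 to 8501, Zmat3 at 329.6 against 458 to 1031 and Ppm1d at 176 against 373 to 823. The probe sets of a gene did not always go the same way: 1457929_at of Mdm2 was below the untreated arrays, at 125 against 248 to 457, as was 1444376_at of Sesn1, at 38.8 against 76.5 to 105. For Ccng1, 1420827_a_at (1513 against 1556 to 4960) and 1450017_at (603 against 729.7 to 2141) were below them, while the one of highest mean lay within their range. Plk2 and Sesn2 lay within it as well. No test was possible with 1 array. How many of all genes lay outside the range of the untreated arrays was not counted, so the counts above have no share beside them. The median signal of the whole intestine array was 62.7, below that of every sorted array.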

How the results depend on the processing

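Of 12 other settings, none turned the direction of a call among the 10 genes. The count for doxorubicin against irradiation in CD24lo cells went from 3 to 5 with the mean of probe sets, to 1 without the variance trend and to 7 with the groups compared alone. In CD24hi cells it went from 0 to 1 after quantile normalization and to 2 with the groups compared alone. The count between untreated fractions went from 3 to 5 after quantile normalization, and the NICD interaction from 1 to 0 without the variance trend and with the groups compared alone. Plk2 after doxorubicin in CD24hi cells lost its call with the replicate block (adjusted p = 0.0533), a pseudocount of 1 (0.0508), no filter (0.0617) and no variance trend (0.0716); the block moved no count of the 10 genes by over 1.5 times. Residuals of same-numbered arrays had r from -0.41 to 0.385 over all 45 pairs of groups, with 11 above 0.1. This check did not set the 2 fractions of a condition apart, so it cannot exclude that they were paired by number. The tests between fractions treated the arrays as unpaired. Btg2 for doxorubicin against irradiation lost its call in 6 of 12 settings, and Cdkn1a without the variance trend (0.0622). The cause of these changes was not tested.

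With each array left out in turn, counts ran from 4 to 6 (irradiation, CD24lo), 5 to 6 (irradiation, CD24hi), 3 to 4 (doxorubicin, CD24lo), 0 to 5 (doxorubicin, CD24hi), 0 to 3 and 0 to 1 (doxorubicin against irradiation, CD24lo and CD24hi), 1 to 4 (untreated fractions), 0 to 1 (Lgr5 ablation, CD24lo), 1 to 4 (NICD, CD24hi) and 0 to 2 (NICD interaction).

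Over all genes the counts called were, for irradiation, 477 (221 to 881 under other settings, 112 to 669 with an array left out) in CD24lo and 526 (391 to 842 under other settings, 163 to 620 with an array left out) in CD24hi cells. For doxorubicin they were 1747 (1540 to 2802 under other settings, 394 to 2068 with an array left out) and 142 (111 to 406 under other settings, 26 to 153 with an array left out), and for doxorubicin against irradiation 388 (284 to 1707 under other settings, 36 to 541 with an array left out) and 540 (450 to 1078 under other settings, 119 to 632 with an array left out). For Lgr5 ablation they were 28 (0 to 48 under other settings, 12 to 46 with an array left out) and 101 (33 to 140 under other settings, 36 to 186 with an array left out), for NICD 1709 (861 to 2683 under other settings, 4 to 2276 with an array left out) and 778 (456 to 1215 under other settings, 206 to 2238 with an array left out), and between untreated fractions 1704 (1267 to 2797 under other settings, 868 to 1917 with an array left out). The interactions gave 1 (0 to 2 under other settings, 0 to 2 with an array left out) for irradiation, 4 (1 to 64 under other settings, 0 to 12 with an array left out) for doxorubicin, 2 (1 to 4 under other settings, 1 to 26 with an array left out) for ablation and 314 (42 to 447 under other settings, 0 to 2622 with an array left out) for NICD. Centring on the 75th percentile changed doxorubicin against irradiation in CD24lo cells from 157 higher and 231 lower to 180 and 172. The fits without CD24hi NICD replicate 2, and the counts of mitosis and cell death genes under each setting, were chosen after seeing the data. Mitosis genes of the doxorubicin interaction passed in up to 9 of 16 under another setting. With 2 arrays per group and no detection calls, weak signals and small differences are limited by the spread between arrays.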
